A study of Mus musculus with 6 samples.

Results

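Transcripts of 5 genes of red blood cells were followed through poly(A) RNA of mouse hippocampus: the adult alpha-globins Hba-a1 and Hba-a2, the adult beta-globins Hbb-bs and Hbb-bt, and Alas2. They were taken by gene name from a table of 54393 genes, and all 5 were present in it. The 5 genes were chosen from their measured values in these same libraries, with the difference between genotypes in view, so their levels and differences are given as a description, without a test.

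Adult haemoglobin is a tetramer of alpha-globin and beta-globin chains, each of which holds a haem group that binds oxygen. Alas2 is the erythroid form of the first enzyme of haem synthesis, while its relative Alas1 serves most other tissues. Red cell precursors make these messengers, young red cells in the blood still carry some of them, and globin transcripts have also been reported in neurons and glia. In brain RNA they are commonly read as a sign of blood left in the tissue.

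The study compared 3 libraries of miR-301a-/- mice (knockout) with 3 libraries of wild-type mice (WT). All were untreated C57BL/6 animals of 6 to 8 weeks, and the tissue was the hippocampus. The knockout is described in the labels by its genotype alone, with no promoter, Cre or allele named. Below, each library carries its genotype and the number pair from its title: knockout 1-1, 2-2 and 3-1, and WT 1-1, 2-1 and 2-2.

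The labels explain neither these codes nor whether any 2 libraries share an animal, so p-values below cover the spread between libraries, part of which may be technical. The table does not name its unit, and its values were read as FPKM-like, that is, fragments per length of transcript and per depth of library. If they are per kilobase and per 1e+06 fragments, the smallest values correspond to depths of about 26.7, 16.7 and 19.2 (in 1e+06 fragments) in knockout 1-1, 2-2 and 3-1, against 27.8, 19.8 and 19.6 in WT 1-1, 2-1 and 2-2. Transcripts of the mitochondrial genome took 18.1% to 22.8% of the summed values in knockout and 16.1% to 21.8% in WT. Mir301, the targeted gene, was listed at 0 in all 6 libraries, so it does not check the genotype labels. Its host gene Ska2 had 5.17 to 6.14 in knockout and 5.70 to 6.08 in WT.

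The 2 alpha-globin genes lie on chromosome 11 of GRCm38 (the mm10 build), Hba-a1 (ENSMUSG00000069919.7) at 32283511 to 32284465 and Hba-a2 (ENSMUSG00000069917.7) at 32296489 to 32297298, both on the forward strand. The 2 beta-globin genes lie on chromosome 7, Hbb-bs (ENSMUSG00000052305.6) at 103826534 to 103828096 and Hbb-bt (ENSMUSG00000073940.3) at 103812524 to 103813996, both on the reverse strand. Alas2 (ENSMUSG00000025270.13) lies on chromosome X at 150547375 to 150570638, on the forward strand.

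The members of each pair are almost the same sequence, which bears on how far their values can be told apart. In the GENCODE M21 transcripts, Hba-a1 and Hba-a2 shared 428 of 429 coding bases and Hbb-bs and Hbb-bt shared 443 of 444, and 0 amino acids differed within either pair. The stretches of coding exon around the 1 differing base, in capitals, are shown because only reads over such bases, or over the untranslated ends, can assign a fragment to one copy. Positions are counted from 1 at the A of the start codon, and the substitutions are C381T (Hba-a1 to Hba-a2) and C417T (Hbb-bs to Hbb-bt).
Hba-a1, coding bases 361 to 401: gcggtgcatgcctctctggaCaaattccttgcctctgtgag
Hba-a2, coding bases 361 to 401: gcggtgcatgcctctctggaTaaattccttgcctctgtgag
Hbb-bs, coding bases 397 to 437: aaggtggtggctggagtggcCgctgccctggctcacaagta
Hbb-bt, coding bases 397 to 437: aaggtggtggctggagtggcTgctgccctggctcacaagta
Of all stretches of 100 bases in the longest Hba-a1 transcript, 56.5% were also found in Hba-a2, and 62.6% of those of Hbb-bs were found in Hbb-bt. No stretch of Hba-a1 was found in Hbb-bs at that length. The sources used here do not give how the authors treated reads that match both copies, so the split within a pair is uncertain, and the sums of alpha-globin and beta-globin would also change if such reads were dropped or counted for both copies.

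The proximal promoters are shown as a description of sequence, and a link between them and the values of the libraries was not tested. The sequences are the 250 bases before the RefSeq start of each gene on GRCm38.p6, written in the direction of transcription. Capitals mark every match, on either strand, to 4 short motifs: TATAA (the TATA box), CCAAT (the CCAAT box), CACCC (bound by Klf1-type factors) and GATAA (bound by GATA factors). Hba-a2 is not printed because it shares an unbroken run of 247 bases with Hba-a1.
Hba-a1, chr11:32283422-32283671, forward strand: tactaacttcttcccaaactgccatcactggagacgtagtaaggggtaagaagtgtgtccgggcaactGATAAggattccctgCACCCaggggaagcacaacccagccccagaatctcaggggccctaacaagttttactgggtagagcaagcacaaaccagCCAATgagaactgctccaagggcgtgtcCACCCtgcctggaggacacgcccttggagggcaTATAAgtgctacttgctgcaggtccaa
Hbb-bs, chr7:103827929-103828178, reverse strand: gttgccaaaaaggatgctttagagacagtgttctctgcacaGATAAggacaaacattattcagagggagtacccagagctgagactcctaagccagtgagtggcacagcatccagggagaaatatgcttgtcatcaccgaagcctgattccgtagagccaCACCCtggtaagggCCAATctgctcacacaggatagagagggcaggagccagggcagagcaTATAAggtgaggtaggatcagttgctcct
Hbb-bt, chr7:103813924-103814173, reverse strand: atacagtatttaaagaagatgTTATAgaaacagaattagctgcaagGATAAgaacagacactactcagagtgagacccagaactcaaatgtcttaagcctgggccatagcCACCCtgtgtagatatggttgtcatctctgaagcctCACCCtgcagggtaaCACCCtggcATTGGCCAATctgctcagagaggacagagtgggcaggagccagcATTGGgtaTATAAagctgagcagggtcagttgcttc
Alas2, chrX:150547167-150547416, forward strand: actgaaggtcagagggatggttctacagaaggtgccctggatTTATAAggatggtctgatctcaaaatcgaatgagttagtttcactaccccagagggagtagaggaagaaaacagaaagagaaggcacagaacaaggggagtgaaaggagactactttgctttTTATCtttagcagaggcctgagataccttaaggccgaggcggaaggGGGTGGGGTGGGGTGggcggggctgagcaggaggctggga
The TATAA nearest the start began 27 bases before it in Hba-a1, 30 in Hba-a2, 29 in Hbb-bs and 28 in Hbb-bt, and 207 bases before it in Alas2. All 4 globin promoters held all 4 motifs. Alas2 held all but CCAAT, which was not found in its 250 bases. Among 32851 RefSeq promoters of this length, 22.8% held TATAA, 33.8% CCAAT, 52.0% CACCC and 22.6% GATAA on either strand, and 0.968% held all 4. Unlike the alpha pair, Hbb-bs and Hbb-bt shared no run longer than 14 bases in this window. A match of letters is a description of the sequence and not a bound site.

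The libraries differed from each other in globin RNA more than the genotypes did. The 4 globins summed to 440.3, 213.1 and 227.8 in knockout 1-1, 2-2 and 3-1, against 293.6, 158.2 and 221.7 in WT 1-1, 2-1 and 2-2. Knockout 1-1 stood highest for all 4 globins, WT 1-1 was second for all 4, and WT 2-1 was lowest for all 4. The highest library held 2.78 times the lowest. Both libraries coded 1-1 were also the deepest of the 6, and a part of depth or of the code in this order was not tested. In bulk tissue, fewer cells of a type and less RNA per cell cannot be told apart.

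The mean globin sum was 294 ± 127 in knockout and 224 ± 67.7 in WT (SD, n = 3 each), a ratio of means of 1.31. On the log2(value + 1) scale, knockout minus WT was 0.35, which is smaller than the pooled SD within genotypes of 0.51. Without knockout 1-1 this difference was 0.02, without WT 2-1 it was 0.12, and without both libraries coded 1-1, a setting chosen after seeing the data, it was 0.23. For the globin sum, knockout 1-1 held 1.50 times the value of WT 1-1, and knockout 2-2 held 0.961 times that of WT 2-2. Hba-a2, Hbb-bs and Hbb-bt also ran in opposite directions in these 2 codes. Hba-a1 (1.23 and 1.10 times) and Alas2 (1.03 and 2.36 times) were higher in knockout in both.

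**Figure D1:**
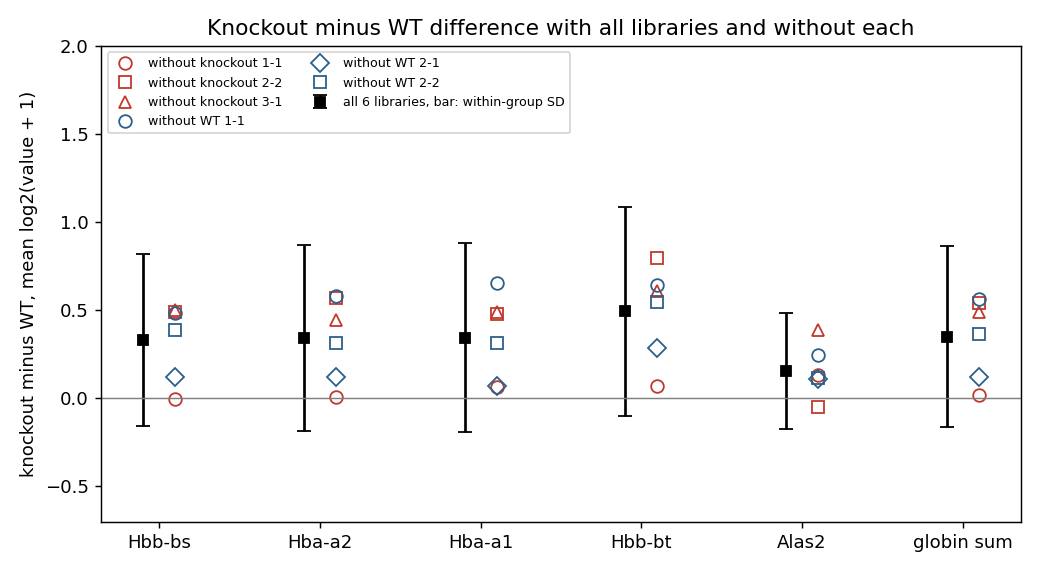
Difference knockout minus WT in mean log2(value + 1) of each gene and of the globin sum. Black squares use all 6 libraries, with bars of 1 pooled SD within genotypes, and open symbols leave out 1 library each. Without knockout 1-1 the globin sum differs by 0.02, and without WT 1-1 by 0.57.

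All 5 genes passed the floor of the fit over all genes, which asked for 3 libraries or more with a value no lower than 1. None of the 5 (0) had values that separated the genotypes without overlap, and over all 14708 genes tested 11.4% did. The limma fit called 0 of the 5, and called 0.109% of all genes tested, 16 in number, at a Benjamini-Hochberg adjusted p under 0.05. Since the genes were chosen on this contrast, nothing is read from these counts.

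**Figure D2:**
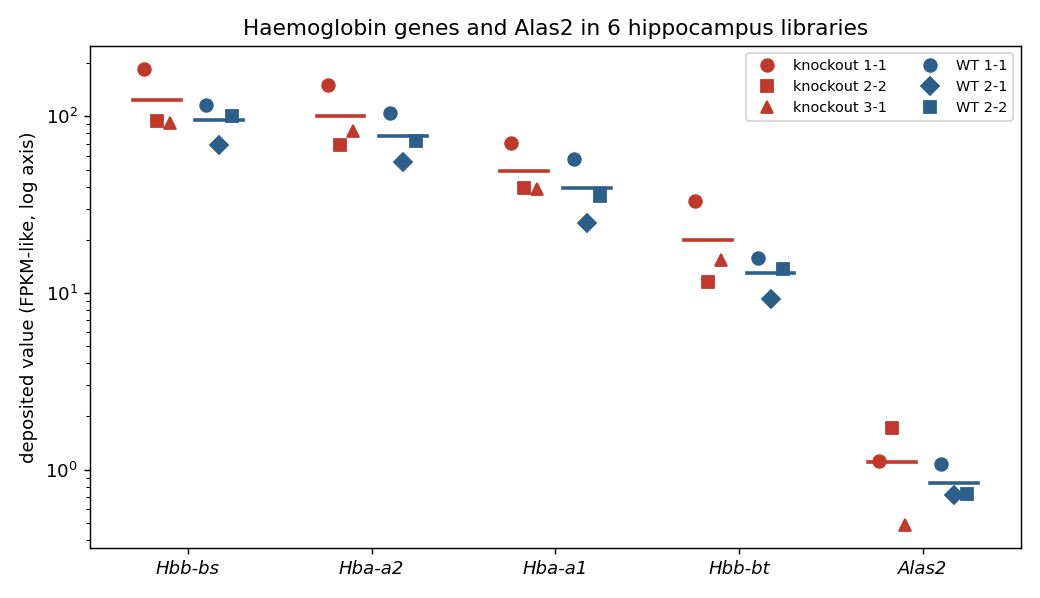
Deposited FPKM-like value on a log axis of each gene in each library, knockout in red to the left of WT in blue, with a bar at the mean of 3 libraries. In each of the 4 globins the highest point is knockout 1-1 and the lowest is WT 2-1, and the genotypes overlap in all 5 genes.

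Hbb-bs, one of the 2 adult beta-globin genes of C57BL/6 mice, had the highest level per length. Its values were 186.0, 93.7 and 91.7 in knockout 1-1, 2-2 and 3-1, against 115.4, 69.1 and 100.5 in WT 1-1, 2-1 and 2-2. Only knockout 1-1 lay above the WT range, and knockout 2-2 and 3-1 lay inside it. The means were 123.8 ± 53.9 in knockout and 95.0 ± 23.6 in WT (SD, n = 3 each), a log2 difference of 0.33 that was −0.0026 without knockout 1-1. At the estimated depths, these values stood for at most about 1200 to 3821 fragments in knockout and 1050 to 2462 in WT.

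Hba-a2, the more abundant alpha-globin copy here, had values of 150.6, 68.8 and 82.1 in knockout 1-1, 2-2 and 3-1, against 105.0, 54.9 and 72.2 in WT 1-1, 2-1 and 2-2. Again only knockout 1-1 exceeded every WT library. The means were 100.5 ± 43.8 in knockout and 77.3 ± 25.4 in WT (SD, n = 3 each), a log2 difference of 0.34 that was 0.00996 without knockout 1-1.

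Hba-a1, which encodes the same alpha-globin protein, had values of 70.4, 39.1 and 38.6 in knockout 1-1, 2-2 and 3-1, against 57.4, 25.0 and 35.4 in WT 1-1, 2-1 and 2-2. WT 1-1 lay above knockout 2-2 and 3-1, so the groups overlapped. The means were 49.4 ± 18.2 in knockout and 39.3 ± 16.5 in WT (SD, n = 3 each), a log2 difference of 0.35 that was 0.06 without knockout 1-1 and 0.07 without WT 2-1.

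Hbb-bt, the other adult beta-globin gene, was the lowest globin of the 4 and, over all 6 libraries, the one that varied most. Within WT alone Hbb-bt had the smallest SD of log2(value + 1) of the 4, 0.37 against 0.38 to 0.59. It had values of 33.4, 11.5 and 15.3 in knockout 1-1, 2-2 and 3-1, against 15.8, 9.23 and 13.7 in WT 1-1, 2-1 and 2-2. Knockout 1-1 held 2.11 times the next library, WT 1-1, while knockout 2-2 and 3-1 lay inside the WT range. The means were 20.1 ± 11.7 in knockout and 12.9 ± 3.36 in WT (SD, n = 3 each), a log2 difference of 0.49 that was 0.07 without knockout 1-1.

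Alas2 stood apart from the globins in its order of libraries. Its values were 1.11, 1.72 and 0.486 in knockout 1-1, 2-2 and 3-1, against 1.08, 0.716 and 0.731 in WT 1-1, 2-1 and 2-2. The highest and the lowest library were both knockout, 2-2 and 3-1, and WT lay between them. The means were 1.11 ± 0.618 in knockout and 0.842 ± 0.205 in WT (SD, n = 3 each), a log2 difference of 0.16 that was −0.05 without knockout 2-2. These values stood for at most about 22.4 to 71.6 fragments in knockout and 34.1 to 71.9 in WT, so Alas2 rests on far fewer fragments than the globins.

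The authors' deposited table gives log2 fold changes of 0.38 for Hbb-bs, 0.38 for Hba-a2, 0.33 for Hba-a1, 0.64 for Hbb-bt and 0.34 for Alas2. They come from the same 6 libraries, and how they were scaled is not stated.

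The order of levels, Hbb-bs, Hba-a2, Hba-a1, Hbb-bt, Alas2, was the same in 6 of 6 libraries. The ranges over all libraries of neighbours in that order overlapped for Hbb-bs and Hba-a2, for Hba-a2 and Hba-a1, and for Hba-a1 and Hbb-bt, but within every library the order held. By level among all genes of a library, Hbb-bs ranked 429th in knockout 1-1 and 868th and 935th in knockout 2-2 and 3-1, against 737th, 1297th and 857th in WT 1-1, 2-1 and 2-2. Alas2 ranked between 13354 and 16591 in knockout and between 14378 and 15703 in WT. The globins took 0.0385% to 0.0701% of all summed values in knockout and 0.0268% to 0.0510% in WT.

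While the total varied, the make-up of the globin signal varied less. Summed alpha-globin over summed beta-globin was 1.01, 1.03 and 1.13 in knockout 1-1, 2-2 and 3-1, against 1.24, 1.02 and 0.943 in WT 1-1, 2-1 and 2-2. The coefficient of variation of this ratio over the 6 libraries was 9.93%, and that of the globin sum was 38.1%. Alpha and beta values of a library share its depth and scaling, which cancel in the ratio.

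Within the alpha pair, Hba-a1 made up 31.9%, 36.2% and 32.0% in knockout 1-1, 2-2 and 3-1, against 35.3%, 31.3% and 32.9% in WT 1-1, 2-1 and 2-2. Within the beta pair, Hbb-bt made up 15.2%, 11.0% and 14.3% in knockout 1-1, 2-2 and 3-1, against 12.05%, 11.79% and 11.98% in WT 1-1, 2-1 and 2-2. The share of Hbb-bt was nearly the same in the 3 WT libraries and spread on both sides of them in knockout. Alas2 relative to the globin sum ranged more widely, from 0.213% to 0.808% in knockout and from 0.330% to 0.453% in WT.

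**Figure D3:**
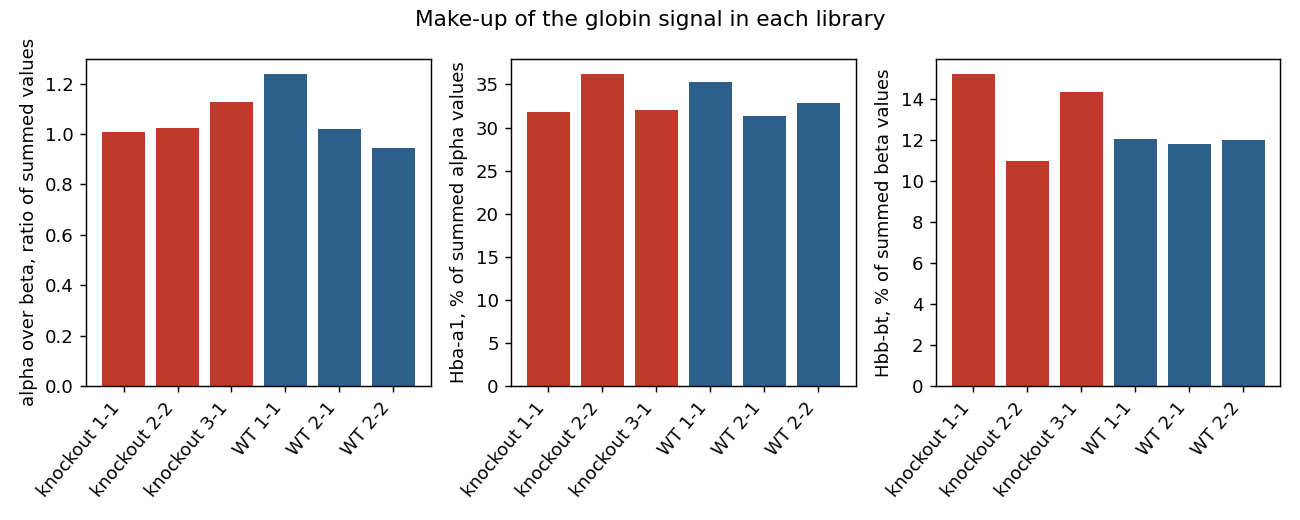
Make-up of the globin signal in each library, knockout in red and WT in blue: alpha over beta as a ratio of summed values, Hba-a1 as a percentage of summed alpha values, and Hbb-bt as a percentage of summed beta values. Each bar is 1 library. Alpha over beta lies between 0.943 and 1.24 while the globin sum itself varies 2.78-fold.

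The spread of the globins between libraries was wide next to other genes. The summed globin covered a range of 1.47 on the log2 scale over 6 libraries, and 3.59% of the genes tested had a range at least as wide. Within knockout the range was 1.04, reached by 3.87% of genes tested, and within WT it was 0.89, reached by 4.59%. For Alas2 the range within knockout was 0.87, reached by 5.57% of genes, and within WT it was 0.28, reached by 37.4%.

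The table holds 14 rows of alpha-globin, beta-globin and theta-globin genes and pseudogenes. The 10 besides the 4 adult genes were at or near 0. 6 of them were listed at 0 in all 6 libraries: the embryonic Hba-x and Hbb-bh1, and Hbb-bh2, Hbb-bh3, Hbb-bh0 and Hba-ps3. The pseudogene Hba-ps4 had 0.377 and 0.271 in knockout 1-1 and 3-1, and was at 0 in knockout 2-2 and in WT. The embryonic Hbb-y had at most 0.194 in knockout and 0.132 in WT. The highest value of the 10 was 1.22, for the theta-globin Hbq1b in WT 2-1. Its copy Hbq1a had 0.412, 0.867 and 0.291 in knockout 1-1, 2-2 and 3-1, against 0.694, 0.700 and 1.02 in WT 1-1, 2-1 and 2-2.

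Globins made outside the blood did not share the order of libraries. Cygb, a globin of fibroblasts and some neurons, had 27.2, 32.5 and 33.6 in knockout 1-1, 2-2 and 3-1, against 33.3, 30.1 and 27.1 in WT 1-1, 2-1 and 2-2. It was among the lowest in knockout 1-1, the library highest in haemoglobin. Ngb, the globin of neurons, had 0.714, 6.43 and 2.12 in knockout 1-1, 2-2 and 3-1, against 1.92, 2.04 and 1.73 in WT 1-1, 2-1 and 2-2. Neither was called by limma with Benjamini-Hochberg adjustment (adjusted p of 0.974 for Cygb and 0.965 for Ngb).

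Alas1, the non-erythroid counterpart of Alas2, had 45.6, 43.3 and 50.4 in knockout 1-1, 2-2 and 3-1, against 49.4, 47.8 and 52.2 in WT 1-1, 2-1 and 2-2. Of the 8 genes of the pathway besides Alas2, Alas1 included, all were tested and 0 were called. In knockout 4 were higher and 4 lower, with a median log2 difference of 0.0018, beside −0.0038 over all genes tested. Fech, which inserts the iron to form haem, had 26.1 to 28.6 in knockout and 25.8 to 27.8 in WT. Urod, an earlier enzyme of the pathway, had 27.4 to 28.1 in knockout and 22.5 to 36.9 in WT, with its highest value in WT 1-1.

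Of 23 genes for haem and iron transport and haem breakdown, 19 were tested, 7 of them higher and 12 lower in knockout, with a median log2 difference of −0.06 and 0 called. Fth1, the heavy chain of the iron store ferritin, had 2420, 1760 and 2049 in knockout 1-1, 2-2 and 3-1, against 2098, 1998 and 2640 in WT 1-1, 2-1 and 2-2. Trf, the plasma iron carrier transferrin that oligodendrocytes also make, had 112 to 154 in knockout and 117 to 175 in WT. Both were highest in WT 2-2, a library of middling globin.

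Several other genes that mark red cells had values at or near 0, and 14 of the 32 listed genes of the red cell membrane and reticulocytes were below 1 in all 6 libraries. Epb42, a protein of the red cell membrane skeleton, Rhag, a part of the Rh complex, and Gfi1b, a transcription factor of red cell precursors, were listed at 0 in all 6 libraries. Gata1, the master transcription factor of the lineage, was above 0 in WT 1-1 alone, at 0.0209. Slc4a1, the anion exchanger of the red cell membrane, reached 0.0116 in knockout and 0.0455 in WT, and was listed at 0 in knockout 1-1, the library with the most globin. Others ran differently: Kel, a red cell blood group protein, had 0.434 in knockout 1-1 and at most 0.0443 in the other libraries, Tspo2 was highest in knockout 1-1 at 0.376, and Rhd was highest in WT 2-1 at 0.354. Klf1, the activator of adult beta-globin, had at most 0.137 in knockout and 0.342 in WT. The values of Gata1 and Slc4a1 stand for very few fragments at the estimated depths, so their order of libraries is uncertain.

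The level these markers would have at this amount of globin was not measured, and Alas2 itself was low, so whether the haemoglobin transcripts came from blood was not tested. Of 10 erythroid transcription factor genes, 4 were tested, 2 higher and 2 lower in knockout, and 0 were called. Ldb1, a cofactor that other tissues also express, had 43.1 to 49.1 in knockout and 44.1 to 45.9 in WT. Lmo2, a partner of Gata1 and Tal1 that vessels also express, had 14.4, 10.8 and 10.8 in knockout 1-1, 2-2 and 3-1, against 12.7, 9.93 and 10.3 in WT 1-1, 2-1 and 2-2. Like the globins Lmo2 was highest in knockout 1-1, second in WT 1-1 and lowest in WT 2-1, over a narrower range. The other tested genes of this list did not share that order. Epor had 2.08, 3.53 and 5.28 in knockout 1-1, 2-2 and 3-1, against 5.26, 4.48 and 4.42 in WT 1-1, 2-1 and 2-2. Zfpm1 was also lowest in WT 2-1, at 8.72, but was highest in WT 1-1, at 15.2, with 13.3 in knockout 1-1. Ldb1 was highest in knockout 2-2 and lowest in knockout 1-1. Of 32 genes of the red cell membrane and of reticulocytes in the table, 17 were tested, 4 higher and 13 lower in knockout with a median of −0.04, and 0 were called. The most abundant were genes that neurons and glia also express, among them Prdx2, a peroxiredoxin, at 144 to 151 in knockout and 148 to 153 in WT, and Car2, a carbonic anhydrase, at 87.4 to 114 in knockout and 89.3 to 120 in WT.

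**Figure D4:**
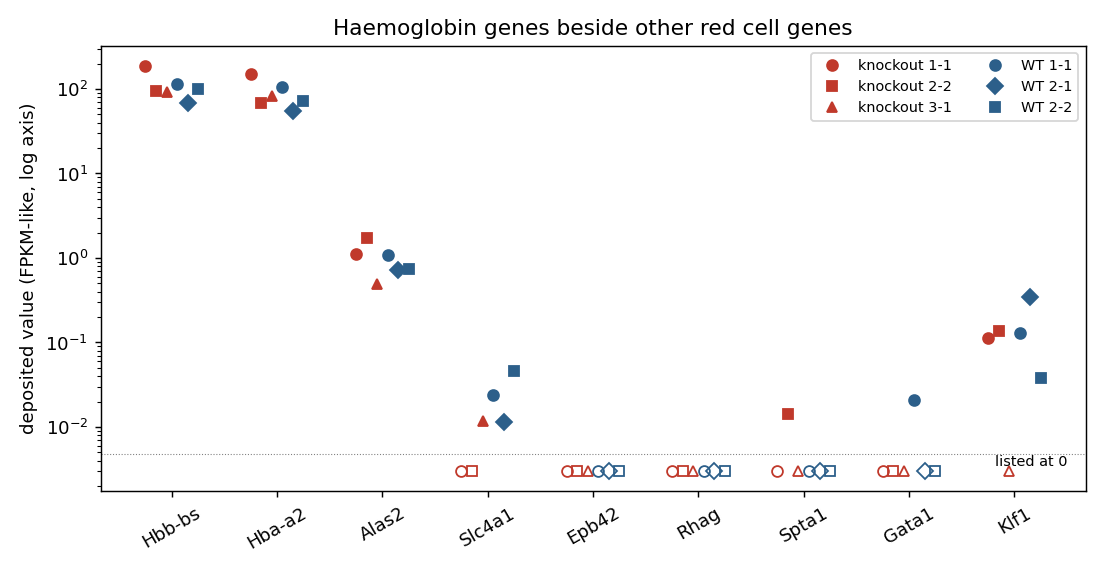
Deposited FPKM-like value on a log axis of Hbb-bs, Hba-a2 and Alas2 beside 6 other red cell genes in each library, knockout in red to the left of WT in blue. Open symbols under the dotted line are values listed at 0. Hbb-bs and Hba-a2 lie at 54.9 or above in every library, while Epb42 and Rhag are at 0 in all 6.

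Markers of the other blood cells were low in every library. The 12 platelet markers summed to 3.55 to 4.31 in knockout and 4.15 to 6.49 in WT, and Tubb1, the platelet tubulin, was listed at 0 in all 6. The 16 neutrophil and monocyte markers summed to 4.76 to 6.06 in knockout and 5.67 to 5.97 in WT. Most of that sum was Lyz2, a lysozyme that microglia also make, at 3.90 to 4.92 in knockout and 3.99 to 4.90 in WT, and 5 of the 16 were at 0 throughout. The 16 lymphocyte markers summed to 8.08 to 8.83 in knockout and 5.77 to 8.88 in WT, mostly Ighm, the heavy chain of immunoglobulin M. In each of these 3 lists 1 gene was tested and 0 were called.

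Genes of the vessels and of neighbouring tissue were set beside the globin values, and their part in those values was not tested. The 16 endothelial markers summed to 256.1, 216.9 and 255.3 in knockout 1-1, 2-2 and 3-1, against 248.5, 198.1 and 222.6 in WT 1-1, 2-1 and 2-2. Their sum was highest in knockout 1-1 and lowest in WT 2-1, as was that of the globins, over a much narrower range. The 10 mural cell markers summed to 69.7 to 72.9 in knockout and 61.9 to 79.0 in WT. Of the 16 endothelial genes, all tested, 12 were higher and 4 lower in knockout, with a median log2 difference of 0.13. Of 8 mural cell genes tested, 3 were higher and 5 lower, with a median of −0.08. Over all genes tested, 7178 were higher and 7530 lower, with a median of −0.0038.

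The 10 ependymal markers summed to 61.7, 26.7 and 38.5 in knockout 1-1, 2-2 and 3-1, against 26.5, 28.6 and 40.5 in WT 1-1, 2-1 and 2-2. The 15 choroid plexus markers summed to 26.6, 23.9 and 12.9 in knockout 1-1, 2-2 and 3-1, against 14.0, 12.2 and 12.4 in WT 1-1, 2-1 and 2-2. Both sums were highest in knockout 1-1, but WT 1-1, second in globin, had the lowest ependymal sum of the 6. Ttr alone gave 12.2 and 10.7 of the choroid plexus sums in knockout 1-1 and 2-2. The sum of the 12 meningeal and fibroblast markers ran another way. It was 36.0, 65.5 and 52.7 in knockout 1-1, 2-2 and 3-1, against 72.3, 42.2 and 48.7 in WT 1-1, 2-1 and 2-2. Dcn weighed most in it, at 12.8 in knockout 1-1 and 26.1 to 32.7 in the other libraries. Igf2, Slc6a13 and Col1a2, next in level, were lowest in WT 2-1 and highest in WT 1-1. The 12 hippocampal and neuronal markers summed to 3576, 2817 and 3248 in knockout 1-1, 2-2 and 3-1, against 3185, 2828 and 3099 in WT 1-1, 2-1 and 2-2, again highest in knockout 1-1. Camk2a and Snap25 weighed most in that sum, at 1060 and 1038 in knockout 1-1. Rbfox3, Gad1, Gad2, Wfs1 and Zbtb20 were not highest in knockout 1-1, and Prox1 was lowest there at 12.7. The 12 microglia markers, also highest in knockout 1-1, summed to 357.5, 254.1 and 313.6 in knockout 1-1, 2-2 and 3-1, against 299.1, 286.8 and 323.5 in WT 1-1, 2-1 and 2-2. In knockout 9 of 10 ependymal, 4 of 5 choroid plexus and 7 of 8 meningeal and fibroblast genes tested were higher. Their median log2 differences were 0.27, 0.13 and 0.19. Of 12 hippocampal and neuronal genes 9 were higher (median 0.08), and of 12 microglia genes 4 were higher (median −0.02). Of these genes 0 were called, and the lists as sets were not tested.

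In limma, 841 of all 14708 genes tested were at an unadjusted p under 0.05. Over all 16 lists, 124 genes besides these 5 were tested and 0 were called. Of the 124, 7 were at an unadjusted limma p under 0.05, and the lowest adjusted p was 0.827. The largest difference among those named was in Ttr, the thyroid hormone carrier of the choroid plexus, with 12.2, 10.7 and 2.74 in knockout 1-1, 2-2 and 3-1, against 1.68, 1.41 and 2.57 in WT 1-1, 2-1 and 2-2 (limma log2 difference 1.55, SE 0.47, adjusted p = 0.832).

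The genes whose course over the 6 libraries was most like that of the summed globin were found by the root mean square difference between log2(value + 1) profiles, each centred on its own mean, among 13268 genes at 1 or more in all 6 libraries. A gene with no change at all would be at 0.455, and the median gene was at 0.469. The nearest was the predicted gene Gm17655 at 0.130, followed by Hpca at 0.143, Thsd4, Strip2, Rgs14, S100a4, Cabp7, Hs3st4, Serpina3n and Cd38, the last at 0.176. For comparison the single globins were at 0.06 for Hba-a2, 0.07 for Hbb-bs, 0.11 for Hba-a1 and 0.16 for Hbb-bt, which are parts of the sum. Alas2 was at 0.465, farther than a flat gene.

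Hpca, which encodes the neuronal calcium sensor hippocalcin, had 1893, 993 and 1237 in knockout 1-1, 2-2 and 3-1, against 1324, 809 and 1256 in WT 1-1, 2-1 and 2-2. Rgs14, a regulator of G protein signalling known from CA2 neurons, had 82.4, 45.1 and 45.3 in knockout 1-1, 2-2 and 3-1, against 51.2, 38.9 and 46.7 in WT 1-1, 2-1 and 2-2. Serpina3n, a protease inhibitor of reactive astrocytes, had 40.7, 20.5 and 26.5 in knockout 1-1, 2-2 and 3-1, against 25.8, 17.7 and 26.3 in WT 1-1, 2-1 and 2-2. In all 3 the highest library was knockout 1-1 and the lowest WT 2-1, as for the globins. They were picked for a profile like that of the summed globin, so this shared order is no further likeness. The nearest gene of any list was Neurod6, a transcription factor of pyramidal neurons, at place 39, and Lmo2 was at place 114. Most defining markers of red cells and other blood cells were below 1 in some library and so were not among the genes compared. These points share library, depth and scaling, and the likeness is a description over 6 libraries.

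**Figure D5:**
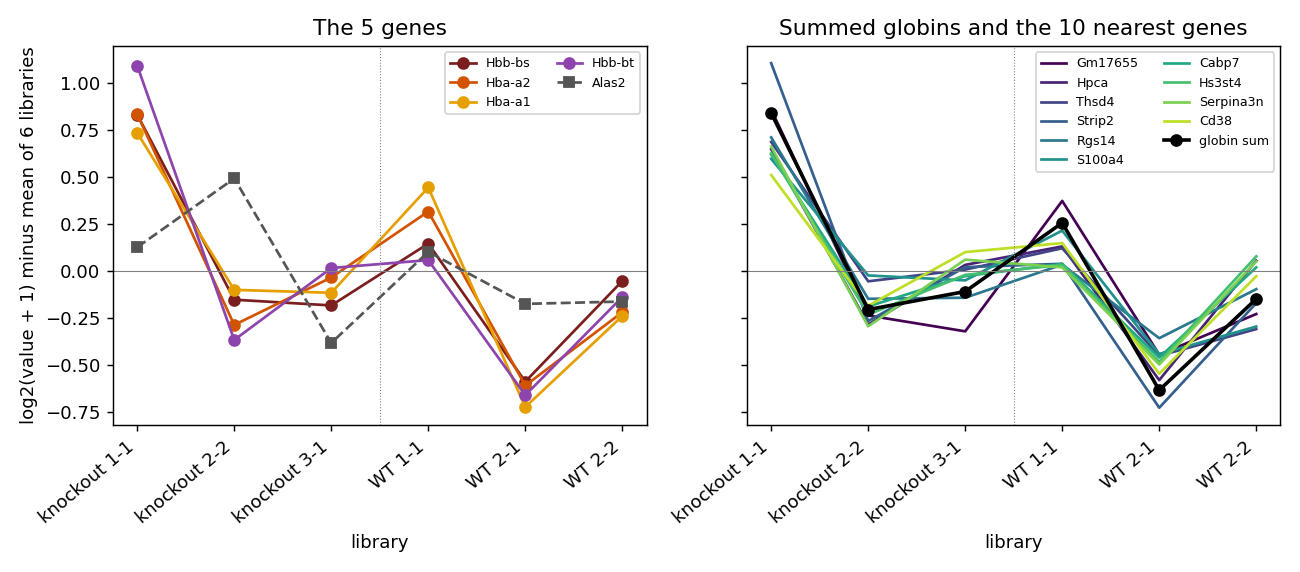
Centred log2(value + 1) of the 5 genes (left) and of the summed globin with the 10 nearest genes (right) in each library, knockout to the left of WT. In the left panel the 4 globins peak in knockout 1-1 and dip in WT 2-1, while Alas2 peaks in knockout 2-2.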

How the data were processed

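Poly(A) RNA of hippocampus was sequenced in 3 libraries per genotype, grouped by the labelled genotype. The deposited table holds 1 value per gene and library, which the authors did not name and which was read as FPKM; it also holds the authors' deposited log2 fold change and p-value per gene, of which the log2 fold changes of the 5 genes are quoted. HISAT2 2.1.0, HTSeq, bcl2fastq and mm10 are listed, with no step given for each, per the submitters' processing notes, while the series' design text names BWA, ANOVA, TopHat and Cufflinks. Strand use and the treatment of shared reads are not given in the sources used here. The median ratio to a common profile, over 19970 genes above 0 in all libraries, was the same 1.00 in each library, so the deposited values were on a common scale.

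The 5 genes and all lists were chosen with earlier results of these data known. Values were used as log2(value + 1), which understates changes of low genes, and tested with limma 3.58.1 in R 4.3.3 (trended empirical Bayes, two-sided, Benjamini-Hochberg adjusted p under 0.05) over 14708 genes at 1 or more in at least 3 of 6 libraries. The fit was tested on simulated data. Depth was estimated from the smallest value times exonic length among 2112 genes with 1 transcript of 3000 to 8000 bases, and limits counting precision; exact counts were not recovered, so no counting interval is given. Positions, lengths and transcripts came from GENCODE M21 on GRCm38, in which all 54393 gene identifiers were found, and promoters from RefSeq on GRCm38.p6, in which all 5 genes matched. Python 3.11.15 with pandas 2.3.3 was used. Genes named are these 5, all alpha-globin, beta-globin and theta-globin rows, and up to 4 genes of each list by mean level. Markers at 0 and the 10 genes nearest to the summed globin were named too. Slc4a1, Kel, Tspo2, Rhd, Klf1, Gata1 and Neurod6 were named after their values were seen. So were Rbfox3, Gad1, Gad2, Wfs1, Zbtb20 and Prox1. Alternatives were another pseudocount, no floor, other scalings, leaving out libraries and a replicate block.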

Additional observations from a re-analysis of the deposited data

How the results depend on the processing

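The log2 difference of the globin sum between knockout and WT, 0.35, ranged over 0.02 to 0.57 when each library was left out in turn, and the differences of the single globins from −0.0026 to 0.80, always within 1 pooled SD of the values from all libraries. A pseudocount of 0.1 gave 0.35, and rescaling by the sum outside mitochondrial genes and the 5 genes gave 0.38. Rescaling by median ratios gave 0.35, but that ratio was the same in each library, so it could not change the difference. The codes 1-1 and 2-2 occur in both genotypes, but libraries of the same code did not deviate together over genes (correlations of −0.10 and −0.06), so the code was not taken to pair them; what else they share is not stated. With the code as a replicate block the globin sum differed by 0.26 and Alas2 by 0.34, and 0 genes were called, with 611 at an unadjusted p under 0.05 in limma. The codes of WT 2-1 and knockout 3-1 occur in 1 genotype each, so these libraries do not enter that difference. It rests on codes 1-1 and 2-2 alone, and nothing is read from the 0 calls of that fit. The count of genes called, 16, was 4 with no floor, 19 with a pseudocount of 0.1 and 23 without both libraries coded 1-1, an alternative chosen after seeing the data. It was 6 without knockout 2-2, 4 without WT 2-1, 6 without WT 2-2 and between 4 and 17 over all libraries left out in turn. The count among listed genes, 0, was 0 to 1 in the same settings, the 1 being Ttr without knockout 3-1 (limma adjusted p = 0.0465). The cause of these changes was not tested, beyond the fewer samples, and under no floor the larger number of genes, 30879, that those fits use. Depth limits Alas2 most, and shared sequence limits the globin pairs.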
